A study of Mus musculus with 8 samples.

Results

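Mitosis and spindle genes encode the proteins that a cell makes before division to condense its chromosomes, attach them to microtubules, separate them and split the cytoplasm. The genes described here are 38 named members of this group, taken from a list of mitotic cyclins, kinases, kinetochore proteins, motors and condensins. All 38 were found among the 27179 genes of the count table, and all 38 passed the filter on low counts. RNA was sequenced from plasma cells, the antibody-secreting end stage of the B lineage, of C57BL/6 mouse bone marrow, sorted by a GFP reporter of Blimp1 together with surface CD138. Of the 8 libraries, batch 1 holds 2 Blimp1KO libraries (genotype Blimp1-/-) and 2 wild-type libraries (WT replicates 1 and 2), and batch 2 holds 2 Xbp1KO libraries (genotype Xbp1-/-) and 2 wild-type libraries (WT replicates 3 and 4). Every group carries the reporter by which it was sorted, and the replicates are called biological in the series' design text. The age of the mice, the way each gene was deleted, and whether mice were pooled are not given in the sources used here. Comparisons set each knockout against the WT libraries of its own batch, called batch 1 WT and batch 2 WT below. The sample labels name the batch without saying which step it refers to.

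Most plasma cells of the bone marrow have left the cell cycle, and their dividing forerunners are called plasmablasts. Mitotic genes are transcribed late in the cycle: the DREAM complex keeps them silent in resting cells, and MuvB with B-MYB and then FOXM1 activates them in cycling cells. DREAM and MuvB bind the cell cycle genes homology region (CHR) near transcription starts, often beside CCAAT boxes, which bind NF-Y. Blimp1 is known as a repressor of cell cycle genes during plasma cell differentiation, and XBP1 as the activator of genes for the secretory pathway.

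Total counts ran from 44012152 to 145411827 per library. Immunoglobulin genes took 55.4% and 58.4% of the counts in Blimp1KO and 75.8% and 75.6% in batch 1 WT, against 29.98% and 25.2% in Xbp1KO and 69.7% and 64.8% in batch 2 WT. Levels are therefore given as CPM, the count of a gene relative to its library's size, on library sizes scaled by the trimmed mean of M values (TMM), which offsets such a shift. Prdm1, which encodes Blimp1, had 243 and 176 CPM in Blimp1KO and 301 and 306 CPM in batch 1 WT, and Xbp1 had 1302 and 1105 CPM in Xbp1KO and 2129 and 2203 CPM in batch 2 WT. Counts over whole genes include reads outside a deleted part, so these levels do not check the genotype labels. In each group the text uses, all 13 plasma cell markers examined had counts, Sdc1 (CD138) among them at 309 to 639 CPM.

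The summed level of the mitosis and spindle genes was higher in Xbp1KO than in batch 2 WT, and 15 of the 38 passed the test there. Their summed level was 1135 and 1394 CPM in Xbp1KO, against 449 and 611 CPM in batch 2 WT, which is 2.39-fold on the means (1264 ± 184 and 530.1 ± 114.5 CPM, SD, n = 2 each). In all 38 genes both Xbp1KO libraries lay above both WT libraries of the batch, where 31.8% of the 15073 genes tested did so. The median log2 fold change of the 38 was 1.34, or 2.53-fold, and that of all genes tested was 0.08. By the quasi-likelihood test of edgeR, with p-values adjusted after Benjamini and Hochberg over all genes and called below 0.05, 15 of the 38 rose and 0 fell. Over all genes tested 7.70% passed, 2.63% higher and 5.06% lower. In bulk RNA, more cells in mitosis and more of these transcripts per cell cannot be told apart.

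In Blimp1KO the same genes were on the low side of batch 1 WT. Their summed level was 211 and 174 CPM in Blimp1KO, against 277 and 354 CPM in batch 1 WT, which is 0.612-fold on the means. Scaled by total counts alone, the sums overlapped, at 223.6 and 168.3 CPM in Blimp1KO and 156.2 and 213.4 CPM in batch 1 WT. With TMM, both Blimp1KO libraries lay below both WT libraries of the batch in 23 genes, or 60.5%, where 22.1% of all genes tested did so. They lay above both in 0, where 20.9% did so. Estimates were below 0 for 36 of 38 genes, with a median log2 fold change of -0.81, or 0.571-fold, against -0.006 for all genes tested; scaled by total counts alone, 15 of the 36 turned positive, with the members' median at -0.05 and that of all genes at 0.78. Only Aspm passed the test, and it fell; over all genes tested 0.862% passed, 0.577% higher and 0.285% lower, and 17 of the 38 had an unadjusted p below 0.05, where 13.9% of all genes tested did.

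**Figure D1:**
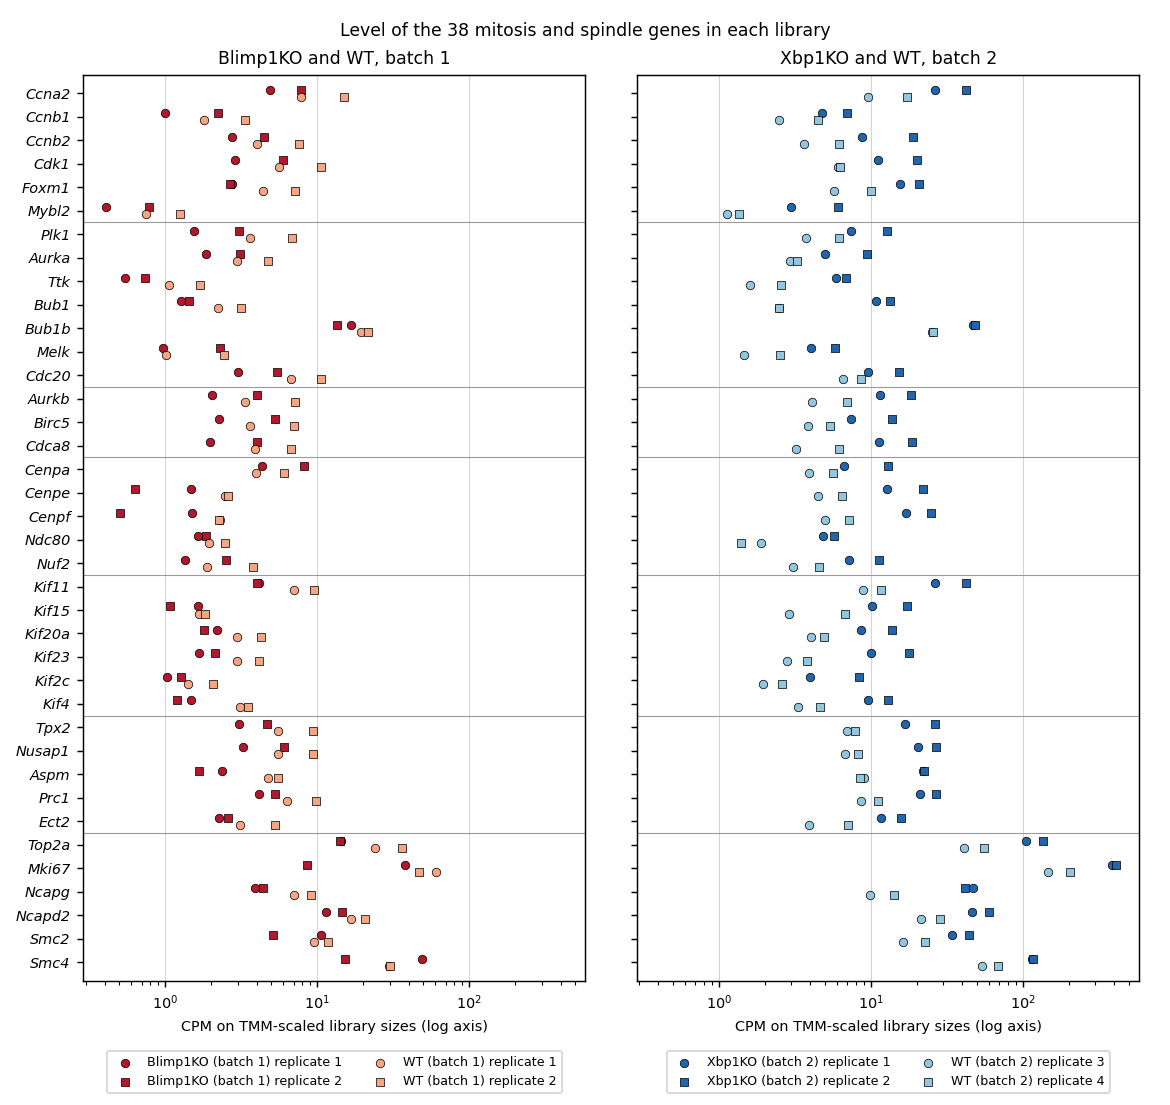
Level of each of the 38 genes in each library, in CPM on a log axis, with Blimp1KO and batch 1 WT in the left panel and Xbp1KO and batch 2 WT in the right panel; each point is 1 library and grey lines part the 7 roles. All Xbp1KO points lie right of the WT points of their batch, and the Blimp1KO points lie left of WT in 23 genes.

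Promoters of these genes share sequence elements that the choice of genes did not use. RefSeq promoter windows (GRCm38.p6) ran from 250 bases before to 50 bases after an annotated start. They were matched by gene ID to 32 of the 38 genes, with 34 windows between them. Ccna2, Foxm1, Aurkb, Kif20a, Tpx2 and Smc4 had no window in the table. A CHR element, searched as TTTGAA or TTCGAA on both strands, was in 27 of 34 windows, or 79.4%, against 19.2% of all 32851 windows in the table and 14.3% of the 14010 windows of genes tested. Within 60 bases before to 30 bases after the start it was in 58.8% of member windows, against 3.36% of those of genes tested. At least 2 CCAAT boxes, searched as CCAAT on both strands, were in 17 of the 34 member windows and in 13.9% of those of genes tested. A CHR element together with at least 2 CCAAT boxes was in 47.1% and 2.32% of them. A match of these letters is a description of the window, not a shown binding site. The 6 stretches below, 130 bases before to 30 bases after the start, were chosen for printing among 18 such stretches of genes with full values in the text whose window holds a CHR element; 14 of the 18 hold one within the stretch, as all 6 do, and those of Bub1b, Ndc80, Plk1 and Smc2 hold none there. Capitals mark CHR elements (TTTGAA, also met as TTCAAA on the other strand, or else TTCGAA) and CCAAT boxes (CCAAT or ATTGG). The palindrome TTCGAA was counted once, and a CHR element and a box can share 1 base at most.
Aspm (chr1:139454643-139454802, plus strand): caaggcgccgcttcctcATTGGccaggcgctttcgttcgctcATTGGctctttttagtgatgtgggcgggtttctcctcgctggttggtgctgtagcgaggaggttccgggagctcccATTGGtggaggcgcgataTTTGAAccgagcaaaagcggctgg
Ccnb2 (chr9:70421525-70421684, minus strand): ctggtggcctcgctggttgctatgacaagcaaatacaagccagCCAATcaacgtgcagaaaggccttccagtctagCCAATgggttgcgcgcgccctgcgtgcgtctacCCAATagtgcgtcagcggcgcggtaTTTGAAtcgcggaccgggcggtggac
Bub1 (chr2:127831830-127831989, minus strand): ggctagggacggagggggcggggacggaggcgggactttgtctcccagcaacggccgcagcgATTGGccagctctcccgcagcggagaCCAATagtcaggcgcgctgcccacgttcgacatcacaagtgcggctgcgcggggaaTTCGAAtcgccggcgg
Kif11 (chr19:37376252-37376411, plus strand): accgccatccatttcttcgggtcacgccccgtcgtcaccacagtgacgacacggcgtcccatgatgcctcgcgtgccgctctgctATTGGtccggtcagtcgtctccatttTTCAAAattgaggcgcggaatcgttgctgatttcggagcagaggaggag
Ncapg (chr5:45669795-45669954, plus strand): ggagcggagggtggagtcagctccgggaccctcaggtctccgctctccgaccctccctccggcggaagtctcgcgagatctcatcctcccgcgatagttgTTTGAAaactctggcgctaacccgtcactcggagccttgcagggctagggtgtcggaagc
Top2a (chr11:99024160-99024319, minus strand): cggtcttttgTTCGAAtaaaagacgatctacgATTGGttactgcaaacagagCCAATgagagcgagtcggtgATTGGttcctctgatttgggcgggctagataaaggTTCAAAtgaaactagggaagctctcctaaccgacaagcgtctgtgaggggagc
Aspm and Ccnb2 each carry 3 CCAAT boxes in a row followed by a CHR element just after the start, while Bub1 carries 2 boxes and a TTCGAA there. Kif11 has a single box followed by a CHR element, both just before the start. Ncapg, with a CHR element just before the start, has no box in the stretch shown, and Top2a holds 2 CHR elements around 3 boxes.

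**Figure D2:**
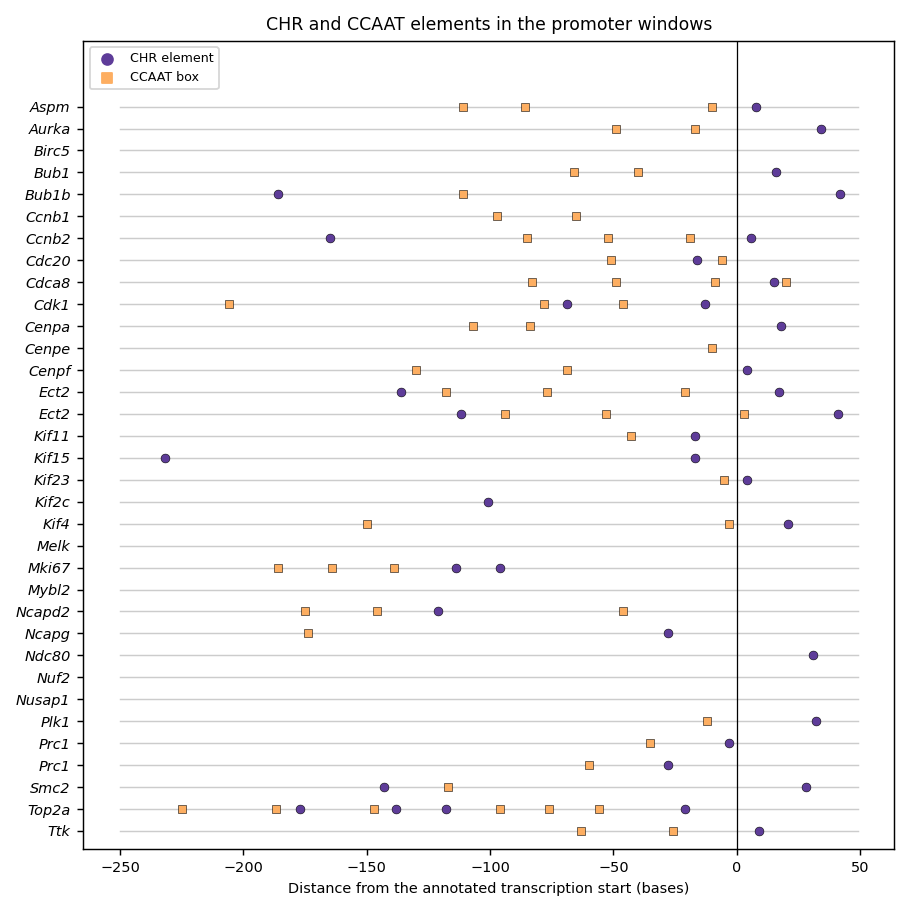
Position of CHR elements (circles) and CCAAT boxes (squares) in the 34 promoter windows of 32 mitosis and spindle genes, as distance in bases from the annotated start (0 on the horizontal axis); each row is 1 window. CHR elements lie within 60 bases before to 30 bases after the start in 58.8% of the windows.

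The first role is that of the cyclins, of CDK1 and of the transcription factors that drive mitotic genes. Cyclins A2, B1 and B2 (Ccna2, Ccnb1, Ccnb2) switch on the kinase CDK1, which starts mitosis, and Foxm1 and Mybl2 (B-MYB) activate the mitotic promoters. Of these 6 genes 0 passed edgeR's test in either knockout, with 1 at an unadjusted p below 0.05 in Blimp1KO and 5 in Xbp1KO, where 13.9% and 23.6% of all genes tested had one. All 6 lay above WT in both Xbp1KO libraries, with log2 fold changes from 0.75 to 1.86. Cdk1 had 11.2 and 20.2 CPM in Xbp1KO, against 6.07 and 6.27 CPM in batch 2 WT, and 2.90 and 5.98 CPM in Blimp1KO, against 5.60 and 10.6 CPM in batch 1 WT. Ccnb2, whose promoter is shown above, had 8.74 and 19.0 CPM in Xbp1KO against 3.61 and 6.20 CPM in batch 2 WT, and 2.76 and 4.45 CPM in Blimp1KO against 4.04 and 7.56 CPM in batch 1 WT. In both genes the Xbp1KO libraries stood clear of WT but differed widely between themselves, and the Blimp1KO and WT libraries of batch 1 overlapped. Their log2 fold changes in Xbp1KO were 1.34 ± 0.46 (SE, adjusted p = 0.130) for Cdk1 and 1.502 ± 0.503 (adjusted p = 0.126) for Ccnb2.

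Ccnb1 was the least raised of the cyclins, with 4.74 and 6.93 CPM in Xbp1KO and 2.47 and 4.45 CPM in batch 2 WT, and with 0.997 and 2.25 CPM in Blimp1KO and 1.79 and 3.36 CPM in batch 1 WT. Its lower Xbp1KO library barely exceeded the higher WT library, and its log2 fold change was 0.75 ± 0.52 (adjusted p = 0.446). Foxm1 had 15.7 and 20.6 CPM in Xbp1KO, against 5.76 and 9.99 CPM in batch 2 WT, and 2.75 and 2.69 CPM in Blimp1KO, against 4.40 and 7.18 CPM in batch 1 WT. Of the 6 it was the only one without overlap in both batches, at 1.21 ± 0.33 in Xbp1KO (adjusted p = 0.0785) and -1.09 ± 0.34 in Blimp1KO (adjusted p = 0.215). Mybl2 had 2.99 and 6.04 CPM in Xbp1KO and 1.14 and 1.36 CPM in batch 2 WT, a log2 fold change of 1.86 ± 0.52 (adjusted p = 0.0792). In batch 1 its level was 0.410 and 0.779 CPM in Blimp1KO and 0.748 and 1.26 CPM in WT, on raw counts of 30 and 59 in Blimp1KO and 33 and 60 in WT.

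Mitotic kinases and the spindle checkpoint held some of the clearest changes in Xbp1KO. The checkpoint delays chromosome separation until every kinetochore is attached: TTK (MPS1) and BUB1 are its kinases, BUBR1 (Bub1b) is part of its effector, and CDC20 is the activator of the anaphase-promoting complex that it holds back. Bub1 had 10.8 and 13.4 CPM in Xbp1KO, against 2.49 and 2.49 CPM in batch 2 WT, and 1.27 and 1.44 CPM in Blimp1KO, against 2.22 and 3.15 CPM in batch 1 WT. It was thus highest in the Xbp1KO libraries by a wide margin and lowest in the Blimp1KO libraries. Bub1 rose by 2.28 ± 0.26 on the log2 scale in Xbp1KO, or 4.87-fold (adjusted p = 0.00525), the largest estimate of the 38, and was at -0.99 ± 0.26 in Blimp1KO (adjusted p = 0.151).

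Bub1b was even between replicates, with 46.6 and 48.1 CPM in Xbp1KO, 25.2 and 25.5 CPM in batch 2 WT, 16.7 and 13.5 CPM in Blimp1KO, and 19.4 and 21.5 CPM in batch 1 WT. It rose by 0.90 ± 0.15 in Xbp1KO (adjusted p = 0.0173), a small change with a small error, and was at -0.44 ± 0.15 in Blimp1KO (adjusted p = 0.256). Ttk had 5.87 and 6.88 CPM in Xbp1KO and 1.61 and 2.55 CPM in batch 2 WT, and 0.546 and 0.740 CPM in Blimp1KO and 1.07 and 1.70 CPM in batch 1 WT. Its groups did not overlap in either batch, and it rose by 1.62 ± 0.38 in Xbp1KO with an adjusted p of 0.0490, at the edge of the threshold.

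Plk1, the kinase of centrosome maturation and mitotic entry, did not pass: 7.43 and 12.9 CPM in Xbp1KO against 3.77 and 6.20 CPM in batch 2 WT, and 1.54 and 3.05 CPM in Blimp1KO against 3.61 and 6.83 CPM in batch 1 WT. The groups stood apart in both batches, but replicates differed by nearly as much, and the log2 fold changes were 1.03 ± 0.49 (adjusted p = 0.264) and -1.18 ± 0.50 (adjusted p = 0.355). The other 3 genes of the role were Aurka (the kinase of spindle poles), Melk and Cdc20, none of them past the test. Their log2 fold changes ran from 0.73 (Cdc20) to 1.32 (Melk) in Xbp1KO and from -1.04 (Cdc20) to -0.09 (Melk) in Blimp1KO. Of the 7 genes of the role, 4 in Xbp1KO and 5 in Blimp1KO had an unadjusted p below 0.05 by edgeR. Over all genes tested 23.6% and 13.9% had one.

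The chromosomal passenger complex, which corrects faulty attachments and later marks the plane of division, is represented by its kinase Aurkb, by survivin (Birc5) and by borealin (Cdca8). None of the 3 passed in either knockout, with log2 fold changes from 1.19 to 1.68 in Xbp1KO and from -0.83 to -0.51 in Blimp1KO. By edgeR 2 had an unadjusted p below 0.05 in Xbp1KO and 0 in Blimp1KO, where 23.6% and 13.9% of all genes tested had one. Aurkb had 11.6 and 18.2 CPM in Xbp1KO, against 4.12 and 6.95 CPM in batch 2 WT, and 2.05 and 4.05 CPM in Blimp1KO, against 3.38 and 7.14 CPM in batch 1 WT. Birc5 had 7.40 and 13.7 CPM in Xbp1KO, against 3.86 and 5.42 CPM in batch 2 WT, and 2.25 and 5.26 CPM in Blimp1KO, against 3.63 and 7.08 CPM in batch 1 WT. In both genes replicate 2 of Blimp1KO, Xbp1KO and batch 1 WT, and WT replicate 4, stood above the other library of the group, the groups of batch 1 overlapped, and those of batch 2 did not.

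At the centromere, CENP-A (Cenpa) is the histone variant that marks the site, NDC80 and NUF2 form the rod that grips microtubules, CENP-E is a kinesin motor and CENP-F a large coiled-coil protein of the outer kinetochore. Of these 5 genes, Ndc80 rose in Xbp1KO and none passed in Blimp1KO. In Blimp1KO 2 of the 5 had an unadjusted p below 0.05 by edgeR, where 13.9% of all genes tested did. Ndc80 had 4.81 and 5.72 CPM in Xbp1KO and 1.89 and 1.40 CPM in batch 2 WT, and 1.65 and 1.85 CPM in Blimp1KO and 1.95 and 2.48 CPM in batch 1 WT. It rose by 1.68 ± 0.30 in Xbp1KO (adjusted p = 0.0226) and was at -0.34 ± 0.30 in Blimp1KO (adjusted p = 0.725), and its lowest library was WT replicate 4 rather than a Blimp1KO one. Cenpe and Cenpf spanned the widest ranges with Mki67: the highest library held 34.5 times the lowest for Cenpe and 49.9 times for Cenpf. Both were lowest in Blimp1KO replicate 2, at 0.634 and 0.502 CPM, on 48 and 38 raw counts. Cenpa was 1 of the 2 genes with an estimate above 0 in Blimp1KO, at 0.32 ± 0.45 (adjusted p = 0.852), with overlapping groups.

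Kinesin motors were the role with the most calls beside spindle assembly, with 4 of 6 higher in Xbp1KO. KIF11 pushes the spindle poles apart, KIF15 backs it up, KIF4 binds chromosomes, KIF20A and KIF23 work in cytokinesis, and KIF2C takes microtubules apart at centromeres. Kif11, whose promoter is shown above, had 26.4 and 41.9 CPM in Xbp1KO, against 8.91 and 11.6 CPM in batch 2 WT, and 4.15 and 4.04 CPM in Blimp1KO, against 7.03 and 9.49 CPM in batch 1 WT. Kif23 had 10.04 and 17.8 CPM in Xbp1KO, against 2.82 and 3.79 CPM in batch 2 WT, and 1.67 and 2.13 CPM in Blimp1KO, against 2.97 and 4.18 CPM in batch 1 WT. Both genes were highest in Xbp1KO and lowest in Blimp1KO, with no overlap within a batch. In Xbp1KO, Kif23 rose by 2.07 ± 0.35 (adjusted p = 0.0191) and Kif11 by 1.74 ± 0.27 (adjusted p = 0.0138).

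Kif4 had 9.64 and 12.9 CPM in Xbp1KO, against 3.30 and 4.61 CPM in batch 2 WT, and 1.49 and 1.20 CPM in Blimp1KO, against 3.11 and 3.49 CPM in batch 1 WT. Kif20a had 8.62 and 13.7 CPM in Xbp1KO, against 4.05 and 4.90 CPM in batch 2 WT, and 2.20 and 1.80 CPM in Blimp1KO, against 2.97 and 4.26 CPM in batch 1 WT. Again no groups overlapped within a batch. Kif4 rose by 1.51 ± 0.27 (adjusted p = 0.0228) and Kif20a by 1.32 ± 0.31 (adjusted p = 0.0490) in Xbp1KO. In Blimp1KO, Kif4 had the second smallest p of the 38 genes, at -1.29 ± 0.28 (adjusted p = 0.0953), and the other 5 motors had log2 fold changes from -1.01 to -0.37. Kif15 and Kif2c lay above WT in both Xbp1KO libraries, at 1.51 ± 0.46 (adjusted p = 0.102) and 1.43 ± 0.43 (adjusted p = 0.0962).

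Spindle assembly and cytokinesis genes gave 4 calls among 5 in Xbp1KO and the single call in Blimp1KO. TPX2 and NUSAP1 nucleate and bundle spindle microtubules, ASPM acts at spindle poles, PRC1 bundles the central spindle, and ECT2 activates the small GTPase of the cleavage furrow. Aspm had 1.68 CPM in Blimp1KO replicate 2 and 2.36 CPM in replicate 1, against 4.79 and 5.52 CPM in batch 1 WT, and it had 21.9 and 22.3 CPM in Xbp1KO, against 9.03 and 8.53 CPM in batch 2 WT. Replicates of each group lay close together and all 4 groups stood apart. Aspm fell by 1.35 ± 0.20 on the log2 scale in Blimp1KO (adjusted p = 0.0397) and rose by 1.33 ± 0.20 in Xbp1KO (adjusted p = 0.0118). Its call in Blimp1KO ended without any 1 of WT replicates 1 to 4 or of the Xbp1KO libraries (adjusted p up to 0.292), while its log2 fold change stayed between -1.57 and -1.12. It also ended with the libraries of batch 1 alone (adjusted p = 0.188), with limma on the deposited log2 FPKM (0.113), with the replicate block (0.0642) and with total counts alone (0.111, log2 fold change -0.55).

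Tpx2 had 16.8 and 26.3 CPM in Xbp1KO, against 6.94 and 7.81 CPM in batch 2 WT, and 3.05 and 4.66 CPM in Blimp1KO, against 5.51 and 9.35 CPM in batch 1 WT. Nusap1 had 20.3 and 26.9 CPM in Xbp1KO, against 6.79 and 8.23 CPM in batch 2 WT, and 3.28 and 6.04 CPM in Blimp1KO, against 5.53 and 9.43 CPM in batch 1 WT. Prc1 had 21.1 and 26.9 CPM in Xbp1KO, against 8.56 and 11.2 CPM in batch 2 WT, and 4.18 and 5.31 CPM in Blimp1KO, against 6.37 and 9.79 CPM in batch 1 WT. None of the 3 overlapped in batch 2, and Nusap1 and no other of them overlapped in batch 1. In Xbp1KO, Tpx2 rose by 1.55 ± 0.35 (adjusted p = 0.0433), Nusap1 by 1.65 ± 0.36 (adjusted p = 0.0411) and Prc1 by 1.28 ± 0.27 (adjusted p = 0.0346). Ect2 did not pass, at 1.32 ± 0.37 (adjusted p = 0.0792).

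Of the 6 genes of chromosome structure, 3 rose in Xbp1KO and 0 passed in Blimp1KO by edgeR. In Blimp1KO 2 had an unadjusted p below 0.05, where 13.9% of all genes tested did. Topoisomerase II alpha (Top2a) untangles sister DNA, Ki-67 (Mki67) coats mitotic chromosomes and is the standard marker of cycling cells, SMC2 and SMC4 form the core of condensin, and NCAPG and NCAPD2 are subunits of condensin I. Ncapg had 46.9 and 41.6 CPM in Xbp1KO, against 9.88 and 14.2 CPM in batch 2 WT, and 3.92 and 4.42 CPM in Blimp1KO, against 7.05 and 9.11 CPM in batch 1 WT. It was the only gene whose highest library was Xbp1KO replicate 1 rather than replicate 2. Ncapg rose by 1.88 ± 0.22 in Xbp1KO (adjusted p = 0.00588), and its call was the only one of the 15 that held in all 8 fits that leave out 1 library.

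Top2a had 105 and 135 CPM in Xbp1KO, against 41.1 and 55.8 CPM in batch 2 WT, and 14.4 and 14.1 CPM in Blimp1KO, against 24.2 and 36.3 CPM in batch 1 WT. Ncapd2 had 46.5 and 60.1 CPM in Xbp1KO, against 21.4 and 28.3 CPM in batch 2 WT, and 11.5 and 14.5 CPM in Blimp1KO, against 16.7 and 20.5 CPM in batch 1 WT. Neither gene overlapped between groups of a batch. In Xbp1KO, Top2a rose by 1.31 ± 0.26 (adjusted p = 0.0283) and Ncapd2 by 1.10 ± 0.22 (adjusted p = 0.0324), and in Blimp1KO they were at -1.09 ± 0.26 (adjusted p = 0.117) and -0.51 ± 0.22 (adjusted p = 0.374).

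Mki67 was the least even of the 38 between replicates of Blimp1KO: it had 37.8 and 8.58 CPM there, against 60.5 and 47.0 CPM in batch 1 WT, and 388 and 412 CPM in Xbp1KO, against 146 and 204 CPM in batch 2 WT. It lay apart from WT in both batches, but with log2 fold changes of -1.21 ± 0.60 (adjusted p = 0.441) and 1.19 ± 0.60 (adjusted p = 0.288) it passed in neither knockout. Smc4 was uneven there as well, with 48.8 and 15.3 CPM in Blimp1KO around 29.8 and 30.2 CPM in batch 1 WT, and 116 and 117 CPM in Xbp1KO, against 53.7 and 68.3 CPM in batch 2 WT. Smc2 had 10.6 and 5.11 CPM in Blimp1KO and 9.50 and 11.7 CPM in batch 1 WT, and 34.2 and 44.5 CPM in Xbp1KO and 16.4 and 22.7 CPM in batch 2 WT. For both condensin core genes the Blimp1KO and WT groups of batch 1 overlapped, and neither passed in Xbp1KO, at 0.93 ± 0.47 (adjusted p = 0.290) for Smc4 and 1.01 ± 0.35 (adjusted p = 0.137) for Smc2.

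Per kilobase of the gene length in the count table, the order of levels differed between groups. In both Xbp1KO libraries the highest were Mki67, Smc4 and Top2a, at means of 39.7, 28.5 and 23.0 CPM per kilobase, and the lowest was Mybl2 at a mean of 1.22. In Blimp1KO the libraries had different orders: replicate 1 was led by Smc4 at 11.95 and Bub1b at 4.54 CPM per kilobase, with Cenpa at 3.23, and replicate 2 by Cenpa at 6.14, with Smc4 at 3.74 and Bub1b at 3.68. In batch 1 WT Smc4 led in both libraries, at 7.29 and 7.39 CPM per kilobase, and in batch 2 WT Mki67 did, at 14.4 and 20.3 CPM per kilobase.

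**Figure D3:**
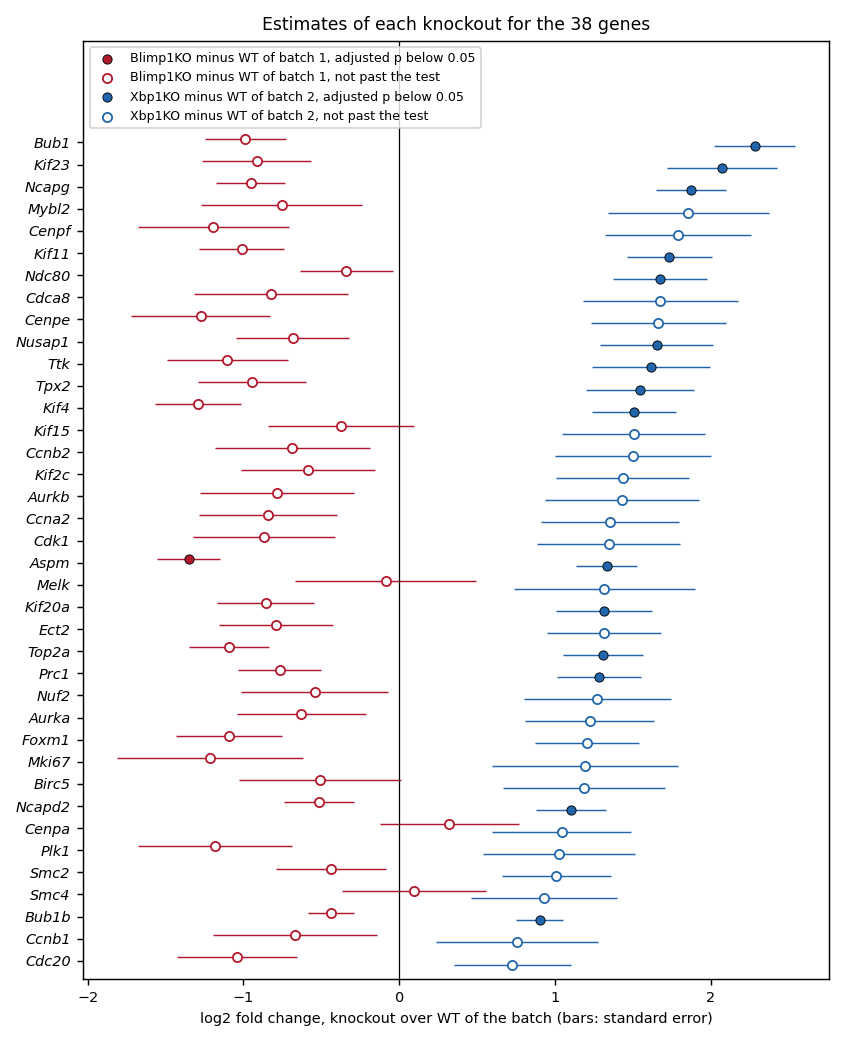
log2 fold change of each of the 38 genes, Blimp1KO over batch 1 WT in red and Xbp1KO over batch 2 WT in blue, with bars of 1 standard error (n = 2 libraries per group); filled points passed edgeR's test. All 38 Xbp1KO estimates lie above 0, 15 of them filled, and 36 Blimp1KO estimates lie below 0 (15 of these turned positive when scaled by total counts alone), of which Aspm is filled.

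The effects of the knockouts on these genes differed from each other. The Blimp1KO effect minus the Xbp1KO effect, a test within 1 model, was below 0 for all 38 genes, with a median of -2.20 on the log2 scale against -0.04 for all genes tested. It passed for 8 genes, all lower, where 0.511% of all genes tested were lower and 1.17% higher: Bub1 at -3.27 ± 0.37 (adjusted p = 0.0144), Kif23 at -2.99 ± 0.50 (adjusted p = 0.0400), Ncapg at -2.83 ± 0.32 (adjusted p = 0.0141), Kif4 at -2.80 ± 0.39, Kif11 at -2.75 ± 0.38, Aspm at -2.68 ± 0.28 (adjusted p = 0.0130), Top2a at -2.40 ± 0.36 and Bub1b at -1.34 ± 0.21. The median difference was -2.20 for the cyclin and transcription factor role, -2.22 for the passenger complex, -2.02 for the centromere role and -1.85 for the kinase and checkpoint role. Since each knockout is in a batch of its own, the difference sets effects within batches against each other. The count of 8 was 0 without WT replicate 1, 2 or 3, 1 without WT replicate 4, 3 and 4 without Xbp1KO replicates 1 and 2, 13 without either Blimp1KO library, and 30 by DESeq2.

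Between the wild types no mitosis and spindle gene passed the test. The summed level was 449 and 611 CPM in batch 2 WT and 277 and 354 CPM in batch 1 WT, or 1.68-fold on the means. Without Mki67 the sums overlapped, at 303.6 and 406.8 CPM in batch 2 WT and 216.7 and 306.7 CPM in batch 1 WT. Estimates were above 0 for 26 genes, with a median log2 difference of 0.31 against -0.02 for all genes tested. By edgeR 0 of 38 differed, where 2.81% of all genes tested did (1.96% higher and 0.843% lower in batch 2), 8 had an unadjusted p below 0.05, where 27.1% of all genes tested did, and DESeq2 called 4, where it called 8.37% of all its genes. Groups did not overlap in 11 genes higher in batch 2 (28.9%) and in 1 lower, Ndc80, where 32.3% and 35.3% of all genes tested did not. Mki67 had the widest gap, at 1.70 ± 0.60 (adjusted p = 0.140).

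Levels of the 38 genes moved together between libraries of a group as well. WT replicate 2 was above WT replicate 1 in 36 genes, Xbp1KO replicate 2 above replicate 1 in 37, and WT replicate 4 above WT replicate 3 in 36, where 46.5%, 42.0% and 48.3% of all genes tested were higher in the same library. In Blimp1KO, replicate 2 was above replicate 1 in 25 genes. Which genes these were went with gene length: the median log2 difference of replicate 2 from replicate 1 was 0.79 for the 15 members under 3000 bases, 0.15 for the 17 from 3000 up to 5000 bases and -0.89 for the 6 of 5000 bases or more. Over all genes tested with a mean of at least 1 CPM the same medians were 0.25, -0.19 and -0.61. In batch 1 WT the members' medians were 0.75, 0.43 and 0.12, and those of all such genes lay between -0.02 and -0.01. Mki67, Smc4, Cenpf, Smc2 and Cenpe, with the 5 largest drops in Blimp1KO replicate 2, are 4082 to 11130 bases long. With a gene length offset in the fit, the median Blimp1KO estimate of the 38 was -0.813, against -0.808 without it. The part of length in the Blimp1KO estimates was not tested further. By length class the median Blimp1KO estimate ran from -0.68 for the shortest to -0.86 and -1.20 for the longer ones. In Xbp1KO the corresponding medians were 1.34, 1.51 and 1.32. For batch 2 WT minus batch 1 WT they were -0.07, 0.31 and 0.99. Those of all genes tested were -0.22, 0.08 and 0.43 between the wild types. With the length offset the median of the 38 between the wild types was 0.25, against 0.31 without it. The part of length there was not tested further.

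**Figure D4:**
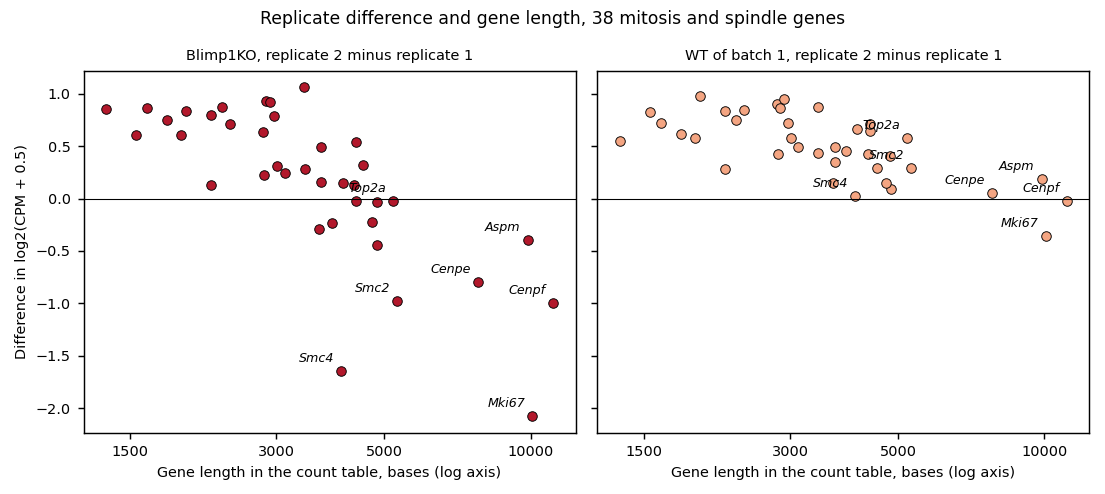
Difference in log2(CPM + 0.5) between the 2 libraries of Blimp1KO (left) and of batch 1 WT (right) for each of the 38 genes, against the gene length in the count table in bases on a log axis. In Blimp1KO the 6 genes of 5000 bases or more all lie below 0, down to -2.08 for Mki67, while in batch 1 WT nearly all genes lie above 0.

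Markers of other marrow cells, which also divide, were unevenly spread over the libraries. The 17 erythroid and megakaryocyte markers in the table summed to 29.9 and 1580 CPM in Xbp1KO and 55.4 and 504 CPM in batch 2 WT, and to 56.7 and 239 CPM in Blimp1KO and 59.5 and 266 CPM in batch 1 WT. Of the 16 tested, 0 passed by edgeR in either knockout. An unadjusted p below 0.05 was met by 2 in Xbp1KO (12.5%) and 0 in Blimp1KO, where 23.6% and 13.9% of all genes tested did so. In Xbp1KO 16 estimates were above 0, with a median log2 fold change of 1.485. The 20 neutrophil and monocyte markers summed to 44.3 and 1669 CPM in Xbp1KO and 15.2 and 697 CPM in batch 2 WT, and to 541 and 324 CPM in Blimp1KO and 381 and 487 CPM in batch 1 WT. Of these, Itgam passed in Xbp1KO, at 1.88 ± 0.32 (adjusted p = 0.0187), and 19 of 20 estimates were above 0 there, with a median of 1.27. Xbp1KO replicate 2 and WT replicate 4 thus held the most of both kinds. Xbp1KO replicate 1 held the lowest erythroid sum of all 8 libraries, Itgam alone made up 41.7 of its 44.3 CPM of myeloid markers, and Ctsg, Lcn2, Fcnb and Chil3 were at 0 in it. Its mitosis and spindle genes summed to 1135 CPM. With Xbp1KO replicate 2 and WT replicate 4 both left out, the median log2 fold change of the 38 genes in Xbp1KO was 1.345. That fit had 1 library in each group of batch 2. All 38 estimates stayed above 0 in it, which it could hardly change, as these groups overlapped in none of the 38 genes.

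**Figure D5:**
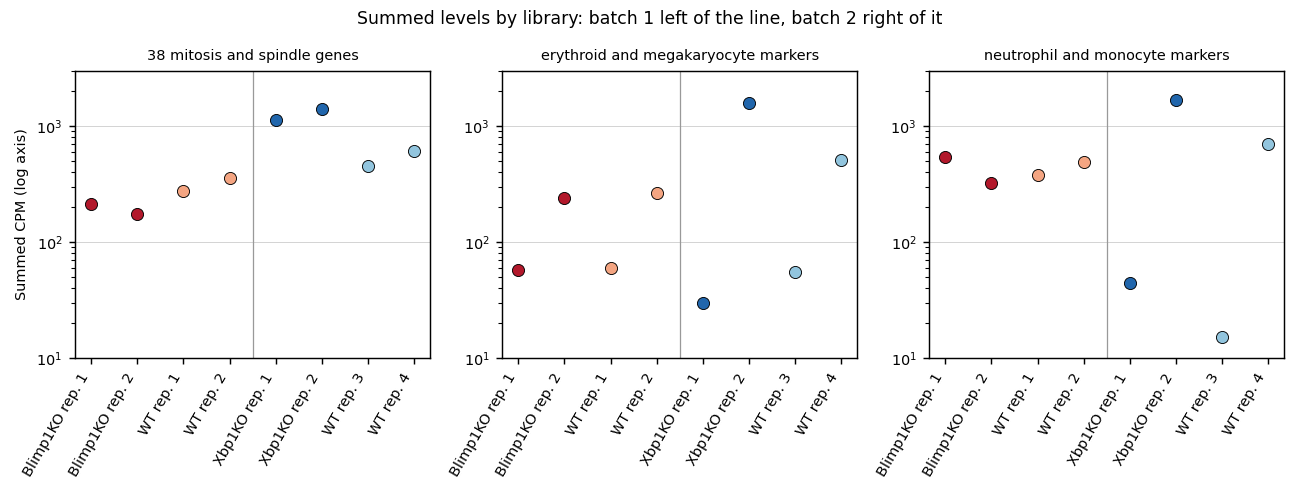
Summed CPM per library on a log axis of the 38 mitosis and spindle genes (left), of 17 erythroid and megakaryocyte markers (middle) and of 20 neutrophil and monocyte markers (right); each point is 1 library. Xbp1KO replicate 1, at 29.9 CPM of erythroid markers, and Xbp1KO replicate 2, at 1580 CPM, lie at 1135 and 1394 CPM in the mitosis and spindle sum.

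Of 13 B progenitor markers, Kit rose in Xbp1KO (1.56 ± 0.30, adjusted p = 0.0263), 12 of 13 estimates were above 0 there with a median of 1.12, and their sum was 136 and 201 CPM in Xbp1KO and 202 and 163 CPM in batch 2 WT. Of 14 tested T and NK cell markers, Cd8b1 rose in Xbp1KO, and 9 estimates were above 0 there, with a median of 0.62. The 15 listed summed to 44.98 and 45.74 CPM in Xbp1KO and 25.78 and 27.96 CPM in batch 2 WT. Among them, Cd3e and Cd3d were at 0 in Xbp1KO replicate 1. Of 12 dendritic cell markers Ccr9 rose and Irf8 fell in Xbp1KO. Of 16 genes of the B cell and plasmablast surface, Cr2, the complement receptor CD21, rose in Xbp1KO, while H2-Aa, H2-Ab1, H2-Eb1 and Spib rose in Blimp1KO. The B cell list summed to 15920 and 21580 CPM in Blimp1KO and 7979 and 6805 CPM in batch 1 WT, and to 3753 and 3559 CPM in Xbp1KO and 5032 and 4676 CPM in batch 2 WT. Of 13 plasma cell markers, Mzb1 and Derl3 fell in Xbp1KO and 0 passed in Blimp1KO by edgeR. An unadjusted p below 0.05 was met by 7 in Xbp1KO (53.8%) and 3 in Blimp1KO (23.1%), where 23.6% and 13.9% of all genes tested did so. After adjustment 7.70% of all genes tested passed in Xbp1KO and 0.862% in Blimp1KO. The part of these cell types in the mitotic levels was not tested.

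Some other genes of the same processes, from lists beside the 38, also rose in Xbp1KO. Over all genes tested 2.63% were called higher there, and the median log2 fold change was 0.08. Of 34 other kinetochore and checkpoint genes 11 rose and 0 fell (median log2 fold change 1.18), among them Ska3 at 2.04 ± 0.38, Cenpt at 2.01 ± 0.38 and Cenpn at 2.17 ± 0.43. Of 27 other spindle and cytokinesis genes 4 rose (median 1.39): Spag5, Ckap2, Ckap2l and Tacc3, at 2.12, 1.72, 1.53 and 1.24. Of 15 other condensin and cohesin genes Ncapg2 rose, at 1.53 ± 0.25 (adjusted p = 0.0153), with a list median of 0.26. Of 29 other mitotic cyclin, kinase and APC/C genes Cdc25b, Gtse1 and Cdca2 rose (median 0.55). From a list of 20 DREAM, MuvB, MYB and E2F genes E2f3 and Myb rose (median 0.30). Myb is not Mybl2 (B-MYB), the factor named with MuvB above, which is among the 38. An unadjusted p below 0.05 by edgeR was met by 70.6% of the kinetochore list, 74.1% of the spindle list and 41.4% of the cyclin list. It was met by 26.7% of the condensin list and 30% of the DREAM list, near the 23.6% of all genes tested.

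Replication genes, which act before mitosis, gave 18 of 45 higher and 0 lower in Xbp1KO (median 0.96), where 2.63% and 5.06% of all genes tested were. The 4 with the smallest p were Pole, the leading strand polymerase, at 2.00 ± 0.25 (adjusted p = 0.00720), thymidine kinase Tk1 at 0.94 ± 0.14, the helicase subunit Mcm4 at 1.13 ± 0.18 and Dbf4, the activator of the kinase CDC7, at 0.96 ± 0.16. Their sum was 740 and 957 CPM in Xbp1KO and 438 and 513 CPM in batch 2 WT. In Blimp1KO 0 of the 170 genes of these 6 lists passed by edgeR, 24 had an unadjusted p below 0.05 (14.1%, where 13.9% of all genes tested did), and medians ran from -0.77 for the other spindle genes and -0.36 for the other kinetochore genes to -0.19 for replication genes and -0.06 for DREAM and E2F genes. Replication genes summed to 402 and 507 CPM in Blimp1KO and 453 and 532 CPM in batch 1 WT, with overlapping groups, and the smallest p among them was that of Clspn, a replication checkpoint adaptor, at -1.19 ± 0.32 (adjusted p = 0.163). Of the kinetochore list the smallest were those of Sgo2a (-1.24, adjusted p = 0.131) and Ska3 (-1.52, adjusted p = 0.136), and of the spindle list those of the motors Kif18a (-1.18, adjusted p = 0.142) and Kif14 (-1.40, adjusted p = 0.225).

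In all 38 genes both Xbp1KO libraries lay above both WT libraries of the batch, so leaving out libraries could hardly turn a sign. The number of calls in Xbp1KO rested on which libraries were in the fit. It was 7 and 8 without WT replicates 1 and 2, 1 and 2 without WT replicates 3 and 4, 4 and 2 without Xbp1KO replicates 1 and 2, and 27 and 30 with no filter on low counts and with DESeq2; all 38 estimates stayed above 0 in all 19 alternatives run.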

How the data were processed

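RNA was sequenced from 8 libraries, 2 per group, which the labels place in 2 batches. The authors deposited raw counts per gene for all libraries, and a log2 FPKM value per gene for each library; Subread, featureCounts, limma and the builds GRCm38 and mm10 are named in the submitters' processing notes, without versions. Genes were named through the deposited tables (13860 IDs) and a RefSeq gene table (11720), which left 1599 without a symbol. The 38 genes and the lists beside them were chosen with earlier results of these data known.

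The counts were filtered with filterByExpr (minimum count 10; 15073 genes left), scaled by TMM (factors 0.5635 to 2.108) and fitted in 1 model of the 4 groups with edgeR 4.0.16 in R 4.3.3 (quasi-likelihood test, two-sided, 4 residual and 3.06 prior degrees of freedom). P-values were adjusted by Benjamini-Hochberg over all genes tested, with a threshold of 0.05. Each SE printed (n = 2 per group) is the size of the log2 change divided by the square root of F. The p-values set a difference of group means against the spread between libraries of a group. That spread was estimated over all 4 groups and moderated across genes. Alternatives used DESeq2 1.42.0 and limma 3.58.1 (on the deposited log2 FPKM), and the steps were tested on simulated data. Full values are given for genes past the test, for non-overlapping genes among the 8 smallest p of a knockout, and for 13 anchors such as Mki67 and Cdk1; Ccna2, Melk, Cdc20 and the like are given by range. In batch 1 the deposited log2 FPKM of each library follows the count column of the other replicate of its group (r of at least 0.999, against 0.965 to 0.978 for its own label), so replicate numbers here are those of the count table; group comparisons are not touched. Replicate libraries differed by far more than sampling noise (chi-square per degree of freedom of 262 or more).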

Additional observations from a re-analysis of the deposited data

Results flagged for a closer look

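Each of 8 genes had an effect in Blimp1KO that differed from its effect in Xbp1KO by edgeR's test of the difference. On the log2 scale the Blimp1KO effect minus the Xbp1KO effect was -2.68 for Aspm, -2.83 for Ncapg, -3.27 for Bub1, -2.8 for Kif4, -2.75 for Kif11, -2.4 for Top2a, -1.34 for Bub1b and -2.99 for Kif23. In every one of the 8, both Blimp1KO libraries lay below WT of batch 1 and both Xbp1KO libraries lay above WT of batch 2. The knockouts are in different batches, so batch and genotype cannot be told apart for their levels, while each effect is taken within a batch.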

How the results depend on the processing

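In Xbp1KO all 38 estimates stayed above 0 in the 19 alternatives run. Those that leave out libraries could hardly turn a sign, as the groups of batch 2 did not overlap. All 38 differences between the effects stayed below 0 in 17 of 17 alternatives. How many genes passed depended on the setting, given here for Blimp1KO, Xbp1KO, the difference and the WT batches in that order, where it changed. With no filter on low counts 5, 27, 27 and 4 members passed (all genes 517, 763 for the difference and 1662 for WT), and with DESeq2 5, 30, 30 and 4 (all genes 814, 2181, 1154 and 1982). In Blimp1KO 0 members passed with limma on the deposited log2 FPKM, with the batch alone (20 genes in all), with the replicate block and with total counts alone, and 2 with the 4 WT libraries pooled (269 in all), where 23 passed in Xbp1KO. With a gene length offset 571 genes passed in Blimp1KO, 2167 in Xbp1KO, 787 for the difference (15 members) and 757 for WT. Scaled by total counts alone, 5895 genes passed in Blimp1KO (members' median -0.048), 9474 in Xbp1KO (38 members, median 2.5) and 2836 for WT (6 members, median 0.89), with the median of all genes moved to 0.78, 1.24 and 0.56. Without Xbp1KO replicate 2 and WT replicate 4, 0 members passed in Blimp1KO (31 genes), Xbp1KO (59) and the difference (2), and 32 genes for WT. The total counts, length and 2-library alternatives were chosen after seeing the data.

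Leaving out 1 library at a time gave 0 to 4 members in Blimp1KO (0 to 688 genes, median -1.1 to -0.36), 1 to 21 in Xbp1KO (225 to 2123 genes, 1.1 to 1.63), 0 to 13 for the difference (3 to 598 genes, -2.59 to -1.76) and 0 to 6 for WT (14 to 2963 genes, -0.0027 to 0.66). As deposited FPKM, in the order of the FPKM labels, the summed level was 131.5 and 118.8 in Blimp1KO and 229.3 and 161.4 in WT of batch 1. In batch 1 each of these labels matches the other replicate of the count table. The FPKM sums were 560.8 and 803.8 in Xbp1KO and 231.9 and 318.4 in WT of batch 2. By total counts alone, Blimp1KO had 223.6 and 168.3 CPM and WT of batch 1 had 156.2 and 213.4 CPM, with overlap. Xbp1KO had 2038 and 2938 CPM by total counts and WT of batch 2 had 361.7 and 577.3 CPM. The sign of the Blimp1KO estimate turned for Smc4 to -0.17 on log2 FPKM, -0.51 with pooled WT, -0.13 with the replicate block and -0.93 without Blimp1KO replicate 1. By total counts alone it turned for Nuf2 (0.22), Birc5 (0.24), Ccnb1 (0.086), Ndc80 (0.44), Bub1b (0.36), Nusap1 (0.078), Mybl2 (0.0060), Aurka (0.14), Melk (0.66), Smc2 (0.37), Kif2c (0.19), Ncapd2 (0.27), Prc1 (0.0075), Ccnb2 (0.078) and Kif15 (0.43). Leaving out 1 library at a time gave -1.06 to 0.050 for Nuf2, -1.24 to 0.053 for Birc5, -0.83 to 0.68 for Melk, -0.93 to 0.71 for Smc4 and -0.21 to 0.76 for Cenpa; the cause was not tested.

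Blimp1KO and WT of batch 1 share replicate numbers. Over 15073 genes, the deviations of replicate 1 from its group mean correlated at r = 0.211 between these groups. With 2 pairs, too few, the numbers were not taken as a pairing. With the replicate block 0, 15, 9 and 0 members passed. Low counts limit batch 1, where up to 9 members had under 100 counts in a library, against 0 in Xbp1KO.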
